A study of Mus musculus with 144 samples.

Results

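The cells described here are the quiescent neural stem cells (stage qNSC in the labels) of the mouse subventricular zone, set apart by whether transcripts of Tlx itself were detected. They were selected on the measured level of Nr2e1, the gene that encodes Tlx: 28 cells had Nr2e1 at 1 TPM or more and 30 cells had it under 1 TPM, out of 58 qNSC cells and 144 libraries in all. TPM is a length-corrected share of a library's transcripts, by definition scaled to a fixed sum, although not all deposited columns reached it. All cells, on both sides, had been sorted by flow cytometry as cells expressing Tlx, so both sides share this sorting criterion. The labels do not say how many separate sorts were made. The study sequenced single cells staged by its authors as qNSC or aNSC (active neural stem cells), cells that were filtered out, and bulk pools of 500 cells. The qNSC cells came from mice of 5 weeks (16 cells), 7 weeks (23 cells) and 7 months (19 cells). The labels give no treatment, genotype, strain, sex or animal, so the number of mice behind a group is unknown. Library titles begin with the name of 1 of 9 sets, A1_1 to A3_3. In staged cells and bulk pools the sets are tied to age: A1 sets are 7 months, A2 sets 7 weeks and A3 sets 5 weeks. The filtered-out libraries with A1_1 and A1_2 titles are labelled 5 weeks instead, and are not used here. Age and set series therefore cannot be told apart in the cells compared, and sets may or may not be separate mice or separate sorts.

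Tlx is an orphan nuclear receptor of the adult forebrain that binds DNA as a repressor, recruiting histone deacetylases and the demethylase Lsd1, and it is needed for neural stem cells to keep dividing. Among its described repressed targets are the astrocyte genes Gfap, S100b and Aqp4 and the cell cycle inhibitor Cdkn1a. Quiescent stem cells of the subventricular zone resemble astrocytes and give rise to active stem cells, progenitors and finally neuroblasts. A transcript present in few copies can be missed when the RNA of a single cell is copied, so a cell without detected transcripts is not shown to lack them.

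The core sequence that Tlx recognises, AAGTCA, was looked for on both strands in the RefSeq promoter windows (250 bases before to 50 after each gene start, build GRCm38.p6), to show where the receptor's own letters occur near its described targets. It was present in 4966 of 32851 windows (15.1%). Of 10 listed targets 7 had a window, and only Gfap's held a match. The window of Nr2e1 held a match as well. The 30 bases around each match run 5′ to 3′ on the gene's strand, with the core in capitals. The Gfap stretch lies at chr11:102897178-102897207 and the Nr2e1 stretch at chr10:42583566-42583595, both on the minus strand. The cores start 5 and 7 bases after the annotated gene start, respectively.
Gfap: ggtgcttccaggAAGTCAggggcagattta
Nr2e1: gcgacaggcacaAAGTCAcagggtaatgaa

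The Nr2e1 values that chose the cells are given as a description. In the detected cells Nr2e1 lay between 1.48 and 1673 TPM, with a median of 16.2 TPM. The levels fell into a lower and an upper range: 18 cells lay between 1.48 and 51.96 TPM, the next cell was at 182.32 TPM, and 10 cells were at or above that level. The ages filled these ranges unequally. At 5 weeks the 6 detected cells had 1.87 to 953 TPM (median 417), and at 7 weeks the 7 detected cells had 2.47 to 824 TPM (median 182). At 7 months the 15 detected cells had 1.48 to 1673 TPM (median 8.91). Thus 8 of the 10 cells between 1 and 10 TPM were 7-month cells, while 8 of the 10 cells above 100 TPM were 5-week or 7-week cells. Among the undetected cells, 14 were listed at exactly 0 and 16 had 0.06 to 0.81 TPM. Nearest to the threshold were 1.48, 1.87 and 2.43 TPM on the inside and 0.81, 0.79 and 0.77 TPM on the outside. For scale, the bulk pools had median Nr2e1 levels of 199 TPM at 5 weeks (9 pools), 101 TPM at 7 weeks (2 pools) and 271 TPM at 7 months (2 pools).

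**Figure D1:**
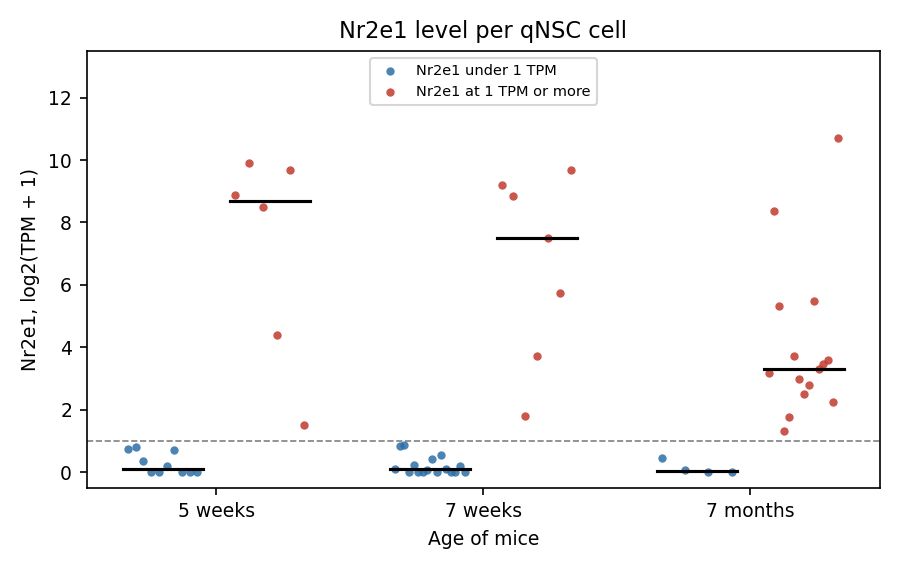
Nr2e1 level of each qNSC cell as log2(TPM + 1), by age of the mice; points are cells, black bars are medians and the dashed line is the 1 TPM threshold that defines the sides. Most detected 7-month cells sit low, with a median of 8.91 TPM, whereas the 5-week and 7-week medians are 417 and 182 TPM.

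Nr2e1 was detected in 6 of 16 cells of 5 weeks, or 37.5% (exact binomial 95% interval 15.2 to 64.6). At 7 weeks it was detected in 7 of 23 cells, or 30.4% (13.2 to 52.9). At 7 months the count was 15 of 19, or 78.9% (54.4 to 93.9). These intervals cover counting error only, and cells are no replicates of an age, so the shares are a description. By title set, detection ran from 3 of 6 cells in A1_1 to 6 of 6 in A1_2 at 7 months, and from 2 of 8 in A2_1 and A2_3 to 3 of 7 in A2_2 at 7 weeks. At 5 weeks it ran from 1 of 5 in A3_2 to 3 of 4 in A3_1, so the sets of different ages overlapped. The 7-month share depended on the detection level: at 10 TPM it was 7 of 19 cells, beside 5 of 16 at 5 weeks and 6 of 23 at 7 weeks. In the aNSC cells, detected at 1 TPM in 33 of 58, the shares by age were 16 of 32, 8 of 16 and 9 of 10 in the same order.

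More genes were measured in detected than in undetected cells at 7 months, with small differences at 7 weeks and mixed ones at 5 weeks. Detected cells had 1242 to 4160 genes at 1 TPM or more (median 2530.5, Nr2e1 not counted), and undetected cells 1016 to 3703 (median 1970.5). By age the medians of detected against undetected cells were 1923 against 2295.5 at 5 weeks, 1982 against 1826.5 at 7 weeks and 3201 against 1759.5 at 7 months. The ranges overlapped at every age. At 7 months the overlap was slight: 15 detected cells had 2340 to 4160 genes and 4 undetected cells 1016 to 2564. Most of the 7-month excess was in genes at a low level. Genes between 1 and 10 TPM numbered 1743 in the median detected cell and 687.5 in the median undetected cell there, while genes at 10 TPM or more numbered 1321 and 1072.

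Over the 8 title sets that held both sides, detected cells had 336 more genes per cell (SD 1062 between sets), and were higher in 6 of 8 sets. That difference was smaller than the spread between sets (exact two-sided sign-flip permutation p = 0.398, adjusted p = 0.719 over 4 measures; the smallest p that 8 sets allow is 0.00781). The set differences ran from a deficit of 1047 genes in A3_2 to an excess of 2145 in A1_3. The former rests on 1 detected cell and the latter on 1 undetected cell, and A3_1 also had 1 undetected cell. Without the 7-month cells, a choice made after seeing the data, the mean difference was -168 genes per cell over 6 sets (exact permutation p = 0.562). Within detected cells, Spearman's rho between Nr2e1 and the number of genes was -0.308 (n = 28), and over all qNSC cells it was 0.311 (n = 58). These points share their library's depth, which TPM does not keep, and are given as description.

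**Figure D2:**
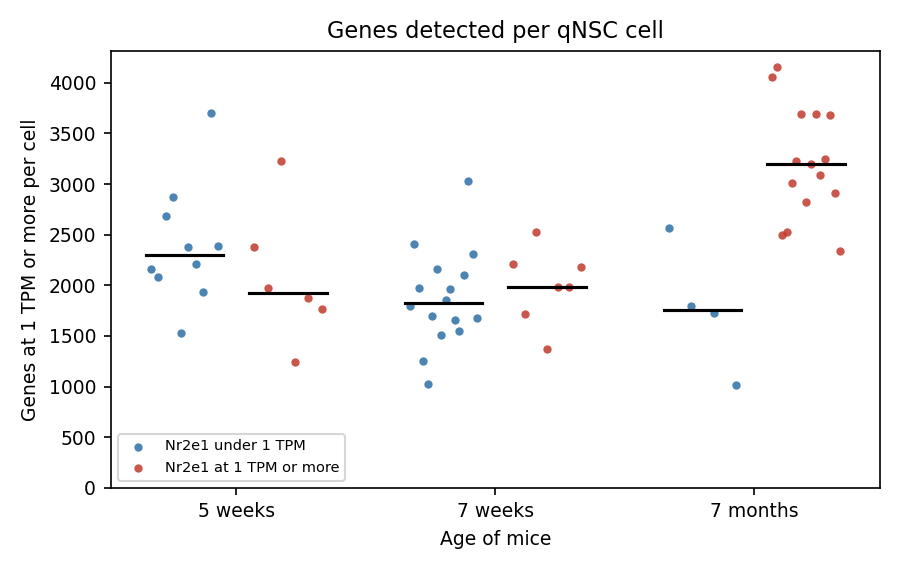
Number of genes at 1 TPM or more in each qNSC cell, by age and side; points are cells and black bars are medians. The sides separate most at 7 months, with medians of 3201 and 1759.5, and overlap at 5 and 7 weeks.

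Transcripts of the reporter row named gfp, whose construct the labels do not describe, were found on both sides. The row reached 1 TPM in 16 of 28 detected cells and 4 of 30 undetected cells. By age the counts were 3 of 6 against 1 of 10 at 5 weeks, 2 of 7 against 2 of 16 at 7 weeks, and 11 of 15 against 1 of 4 at 7 months. Levels in detected cells ran from 0 through a median of 2.27 to 939 TPM. In undetected cells they ran from 0 through a median of 0 to 500 TPM, so the sides overlapped over nearly the whole range. The 7-month cells supplied 11 of the 16 detected cells with gfp, and are also the cells with the most low-level genes. Over title sets the log2(TPM + 1) of gfp differed by 0.70 (SD 3.41, higher in 3 of 8 sets; exact permutation p = 0.594, adjusted p = 0.719). Spearman's rho between Nr2e1 and gfp was 0.239 over the 58 cells and -0.241 within the 28 detected cells. In aNSC cells gfp reached 1 TPM in 23 of 33 Nr2e1-detected and 7 of 25 undetected cells. Its set difference there was 2.72 (higher in 6 of 6 sets; exact permutation p = 0.0312, the smallest possible, adjusted p = 0.125). The interaction with stage for gfp was -1.86 on the log2 scale and did not pass (limma, unadjusted p = 0.133). The bulk pools held gfp at median levels of 639, 339 and 968 TPM at 5 weeks, 7 weeks and 7 months.

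The Malat1 and mitochondrial percentages of TPM differed by less than their spread. They were taken of 1000000 TPM, while the columns of qNSC cells summed to 710525 or more. The median sum was 934064 in detected and 984788 in undetected cells. Malat1, an abundant nuclear non-coding RNA, took 3.17% to 28.1% of TPM in detected cells (median 8.10%) and 2.27% to 44.6% in undetected cells (median 8.99%). Its set difference was -1.46 percentage points (SD 6.11, higher in 3 of 8 sets; exact permutation p = 0.539, adjusted p = 0.719). The mitochondrially encoded genes took medians of 5.98% and 6.91%. Their set difference was -0.447 points (SD 3.28, higher in 4 of 8 sets; exact permutation p = 0.719, adjusted p = 0.719).

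Across all other genes, none was shown to differ between qNSC cells with and without detected Nr2e1. The sides were compared on the mean log2(TPM + 1) per side and age, with 3 pairs, for 3661 genes whose mean log2 value was at least 1. With limma and Benjamini-Hochberg adjustment, 0 of 3661 genes passed an adjusted p of 0.05 (0%), and the smallest adjusted p was 0.9997. At an unadjusted limma p under 0.05 there were 122 genes higher and 24 lower in detected cells, or 146 of 3661 (3.99%). The precision is low: the median standard error was 0.80 and the median half-width of a gene's 95% interval was 1.87 on the log2 scale. Only 581 genes (15.9%) had an interval wholly within 2 log2 units of no difference, and 0 within 1 unit. For the other genes the interval reaches beyond 2 log2 units in at least 1 direction, so a difference of that size is not excluded.

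The median gene was 0.23 higher in detected cells, and 61.8% of tested genes had a positive difference. The shift had the same order over the ages as the difference in genes per cell: the median gene differed by -0.25 at 5 weeks, 0.10 at 7 weeks and 0.76 at 7 months. With quantile normalization the median was 0.01, and with the number of genes detected as a covariate it was -0.05. The covariate was applied before the fit, not as a term of it. Each gene's slope on the log2 number of genes, over the cells of all sides and ages together, was subtracted. That step can also remove part of a difference between sides. Differences between sides are read against the shift of the median gene. The sign was the same in all 3 ages for 556 genes higher in detected cells (15.2%) and 250 lower (6.83%).

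The largest differences with a steady sign are given as values that did not pass. Sdhb, the iron-sulfur subunit of succinate dehydrogenase, had 0.53 to 2980 TPM in detected cells (median 258) and 0 to 1584 TPM in undetected cells (median 0.65). It reached 10 TPM in 17 of 28 detected and 5 of 30 undetected cells. The ranges overlapped, with most undetected cells near 0. Its difference was 3.94 (SE 0.75, 95% interval 2.19 to 5.69), and by age 4.95, 3.18 and 3.71 from youngest to oldest. The limma adjusted p was 0.9997. With title sets in place of ages as units, Sdhb was the 1 gene of 3661 that passed (0.0273%; limma difference 4.87, SE 0.68, adjusted p = 0.0398, higher in 8 of 8 sets). With title sets but the slope on the number of genes subtracted beforehand, its difference was 4.29 (limma adjusted p = 0.840). Without the 7-month cells it was 4.54 (adjusted p = 0.597); both these settings were chosen after seeing the data. Over all 29 alternatives its difference stayed positive, between 1.97 and 5.20, with limma adjusted p between 0.0398 and 0.9999.

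The next genes on the higher side were these. Btg1, an anti-proliferative regulator linked to quiescence, had a median of 160 TPM in detected and 0.105 TPM in undetected cells, and reached 10 TPM in 20 of 28 against 9 of 30 cells. Its difference was 3.77 (SE 0.73; 4.49, 3.53 and 3.29 by age). Acsl3, a long-chain fatty acid activating enzyme, had medians of 602 and 0.60 TPM and a difference of 3.49 (SE 0.88; 2.77, 2.20 and 5.50 by age). Cox5b, a subunit of cytochrome c oxidase, had medians of 19.2 and 0.675 TPM and a difference of 3.21. Suclg1, a succinyl-CoA synthetase subunit, differed by 3.02 and was higher in 8 of 8 sets. Uqcc1, an assembly factor of respiratory complex III, reached 1 TPM in 20 of 28 detected cells and 2 of 30 undetected cells, and differed by 2.92. The remaining 4 were the splicing factor Srsf3 (3.10), the endosomal adaptor Appl2 (3.04), the ribosome maturation factor Sbds (2.87) and the sterol desaturase Sc5d (2.84). Counts of cells at 1 TPM move with the number of genes per cell, which is higher in detected cells at 7 months. With that number as a covariate the differences of these 10 genes were between 1.995 and 3.22. They came down to 1.2 for the smallest with the log2 of the mean TPM, and to 1.02 with title sets as units and sides set at 10 TPM (an alternative chosen after seeing the data).

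On the lower side the first gene was a second fatty acid activating enzyme. Acsl6 had a median of 2.41 TPM in detected cells (0 to 2388) and 279 TPM in undetected cells (0 to 2910). It reached 10 TPM in 13 of 28 and 19 of 30 cells, so the ranges overlapped throughout. Its difference was -3.20 (SE 0.71, 95% interval -4.85 to -1.55), with -3.03, -2.98 and -3.59 by age, and it was lower in 8 of 8 sets. Rbx1, a ubiquitin ligase subunit, had medians of 20.9 and 532 TPM (difference -3.07). Slc25a5, a mitochondrial ADP/ATP carrier, had medians of 59.6 and 1133 TPM and was at 1 TPM or more in 23 of 28 detected cells and 30 of 30 undetected cells (difference -2.77). Snapc3, a subunit of the small nuclear RNA activating complex, reached 10 TPM in 0 of 28 detected and 9 of 30 undetected cells (difference -2.80). Timm8b, a mitochondrial import chaperone, did so in 0 of 28 and 10 of 30 cells (difference -2.70). The other 5 were Canx (-2.37), the lipid phosphatase Mtmr2 (-2.36), Sar1b (-2.17), the lysosomal protease Ctsb (-2.00) and Golt1b (-1.98), of which Canx, Sar1b and Golt1b act in the early secretory pathway. With the number of genes as a covariate these 10 differences were between -3.48 and -1.73. The smallest was -0.29 without title set A1_1 and -0.52 with sides set at 10 TPM. With sides set by any Nr2e1 above 0, 8 of the 10 kept a negative sign. These genes were picked for the size of their difference, so the split itself is no independent evidence of it.

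**Figure D3:**
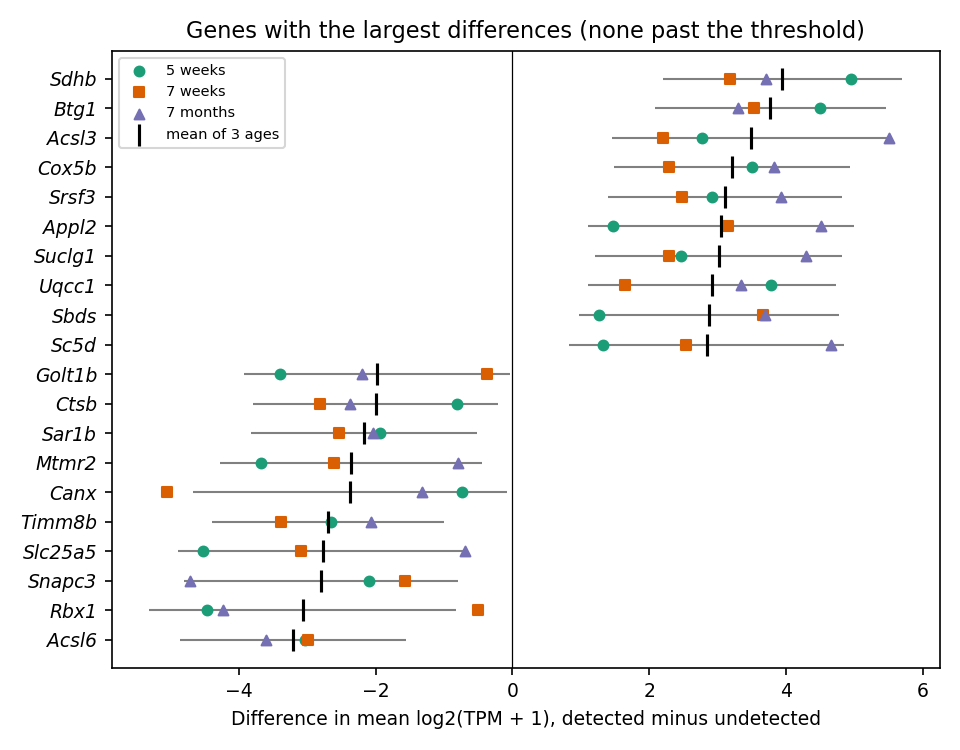
Difference in mean log2(TPM + 1), Nr2e1-detected minus undetected qNSC cells, for the 10 genes highest and 10 lowest by the naming rule; coloured symbols are the 3 ages, black ticks their mean and grey lines limma 95% intervals. Each gene has the same sign at all ages by selection, and none passed the threshold (smallest adjusted p 0.9997).

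Described targets of Tlx were mostly too low to be tested. Of 7 repressed targets 2 passed the filter on low values. Aqp4, a water channel of astrocytes, reached 1 TPM in 12 detected and 9 undetected cells, with a difference of -0.06 (95% interval -1.76 to 1.65). S100b, a calcium-binding protein of astrocytes, reached it in 5 and 5 cells, with a difference of -0.20 (-1.84 to 1.44). Gfap, an intermediate filament protein whose start holds the core sequence printed above, was at 10 TPM or more in 3 of 28 detected cells, up to 766 TPM, and at 0.12 TPM or less in all 30 undetected cells. Plce1, a phospholipase, reached 1 TPM in 2 and 1 cells, Cdkn1a in 0 and 2, and the growth factor Bmp4 in 0 and 0. Of the 3 activated targets, Sirt1, a deacetylase, was tested and differed by -0.38 (95% interval -2.31 to 1.56). Wnt7a, a secreted Wnt ligand, reached 1 TPM in 3 detected and 1 undetected cells. The median difference of the 2 tested repressed targets was -0.13 (0.08 without the 7-month cells), beside 0.23 over all tested genes.

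Of 10 listed cofactors of Tlx, 3 passed the filter and 0 passed the test. Hdac3, a histone deacetylase, reached 10 TPM in 6 of 28 detected cells and 0 of 30 undetected cells, with maxima of 1250 and 4.94 TPM. Its difference was 1.95 (SE 0.75; unadjusted p = 0.0328, limma adjusted p = 0.9997). Hdac1 had medians of 9.92 and 5.88 TPM and a difference of 1.45 (higher in 7 of 8 sets; 1.38, 1.29 and 1.68 by age). Sox2, a stem cell transcription factor that also binds Tlx, reached 1 TPM in 3 detected and 10 undetected cells and differed by -1.40 (95% interval -3.18 to 0.39). Kdm1a, which encodes Lsd1, reached 1 TPM in 1 and 5 cells. Among 21 other nuclear receptors 4 were tested, with a median difference of 0.87. Nr1d2, a clock-regulated repressor, reached 1 TPM in 14 and 2 cells.

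No stem cell regulator was shown to differ between sides. Of 27 listed genes 17 were tested and 0 passed. An unadjusted limma p under 0.05 was found for 1 (Id4, an inhibitor of basic helix-loop-helix factors), beside 3.99% of all tested genes. Their median difference was 0.44, with 14 of 17 positive, beside 0.23 and 61.8% over all tested genes. Sox9, a glial transcription factor, was at 1 TPM or more in 24 of 28 detected and 27 of 30 undetected cells and differed by 0.01 (95% interval -2.05 to 2.08). Notch2, a receptor of the Notch pathway, was in 25 cells of each side and differed by 1.25. Hes1, a Notch target and repressor, was in 10 and 5 cells and differed by 1.33. Id3 differed by -0.83, and Vim, an intermediate filament gene, by 0.88. Of 18 Notch pathway genes 3 were tested (median 1.25), of 20 BMP and TGF-beta genes 6 (median -0.19, and 0.34 without the 7-month cells), and of 20 Wnt genes 6 (median -0.16), with 0 passing in each.

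Genes of activation and division were likewise unresolved. Of 14 activation and progenitor genes 5 were tested, 0 passed and all 5 had positive differences (median 0.76, and -0.16 without the 7-month cells). Ccnd2, a G1 cyclin, reached 1 TPM in 21 and 19 cells and differed by 0.99. Cdk4, its partner kinase, differed by 0.76, made up of -2.38, 0.30 and 4.35 from 5 weeks to 7 months. Fos, an immediate early factor, was in 17 of 28 and 5 of 30 cells, with 13 of those 17 at 7 months, and differed by 2.01 (unadjusted p = 0.0356). Mki67, a marker of dividing cells, reached 1 TPM in 1 and 3 cells, and Egfr, the receptor that marks active stem cells, in 1 and 3. Of 28 S phase genes 10 were tested (median 0.41, and -0.42 without the 7-month cells), and of 30 G2/M genes 7 (median -0.29), with 0 passing.

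Metabolic lists had medians between -0.11 and 0.63, on both sides of the 0.23 over all tested genes, and most changed sign under another setting. Of 80 oxidative phosphorylation genes 75 were tested, 0 passed and the median was 0.39. An unadjusted limma p under 0.05 was found for 9 of the 75, beside 3.99% of all tested genes. The count of 9 was not tested against that share. Of the 75 differences 44 were positive and 31 negative, beside 61.8% positive over all tested genes. In all 3 ages 13 of the 75 were higher in detected cells and 6 lower, beside the shares of 15.2% and 6.83% over all tested genes. For 81 tested ribosomal protein genes of 91 the median was 0.27, with 9 higher and 8 lower in all 3 ages. Glycolysis (12 of 17 tested) had a median of 0.39, fatty acid oxidation (14 of 21) 0.63 and lipid synthesis (11 of 20) 0.14. The mitochondrially encoded genes (13 of 13) had a median of -0.11. Over 6 alternatives (title sets, covariate, Nr2e1 at 10 TPM, quantile normalization, no 7-month cells, astroglial mean of at least 3) the ribosomal median ran from -0.53 to 0.32 and the lipid synthesis median from -0.42 to 0.69. The oxidative phosphorylation median ran from -0.05 to 0.46, that of fatty acid oxidation from -0.04 to 0.74 and that of the mitochondrially encoded genes from -0.14 to 0.20. The glycolysis median stayed positive, from 0.20 to 0.52. Of these 6 lists 0 genes passed, and Sdhb and Cox5b, named above, belong to the first.

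The labelled cell type was checked on each side. Astroglial markers of quiescent stem cells were at 1 TPM or more in nearly all cells: the glutamate transporter Slc1a3 in 28 of 28 detected and 29 of 30 undetected cells, the glycolytic enzyme Aldoc in 28 and 26, and the gap junction gene Gja1 in 28 and 26. The levels overlapped: Slc1a3 had medians of 3445 TPM (2.42 to 8603) and 3561 TPM (0.59 to 7235), and Aldoc of 4305 and 4894 TPM. The mean log2(TPM + 1) over the 40 astroglial genes ran from 1.36 to 9.90 in detected cells (median 8.10) and from 0.43 to 9.62 in undetected cells (median 6.84). It was under 3 in 3 detected cells (0, 1 and 2 at 5 weeks, 7 weeks and 7 months) and 5 undetected cells (4, 1 and 0). These 8 cells stand apart from their label's markers. Their means over the neuroblast list ran from 4.06 to 7.42, so the same cells were low in astroglial and high in neuroblast genes. Among them A1_1_S23, A3_3_S7 and A3_2_S20 also had G2/M means of 7.49, 6.50 and 5.07. Requiring a mean of at least 3 left 25 cells on each side and again 0 of 3504 genes passing (limma, 170 higher and 29 lower at an unadjusted p under 0.05).

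The differences of astroglial and neuroblast genes ran in opposite directions over the ages, which is given as a description. Of 39 tested astroglial genes 30 had positive differences and the median was 0.84. By age that median was 2.67 at 5 weeks, 0.73 at 7 weeks and -1.19 at 7 months, while the median of all genes went from -0.25 to 0.76. Aldoc differed by 3.74, 0.34 and -3.00 in that order, Clu, a secreted chaperone, by 3.81, 0.28 and -2.73, and Slc1a3 by 3.25, -1.54 and -1.39. For 16 tested neuroblast genes of 22 the medians were -2.67, 0.65 and 2.68. Tubb3, a neuronal tubulin, differed by -3.74, 0.74 and 4.14, and Stmn1, a microtubule regulator, by -2.12, -0.85 and 5.11. With cells of astroglial mean under 3 left out, the overall median of the astroglial list was 0.39 and that of the neuroblast list 0.62. These medians are over all ages, so they do not show the order by age without those cells. The change with age was not tested, as the 7-month undetected cells are 4 cells of 2 title sets.

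**Figure D4:**
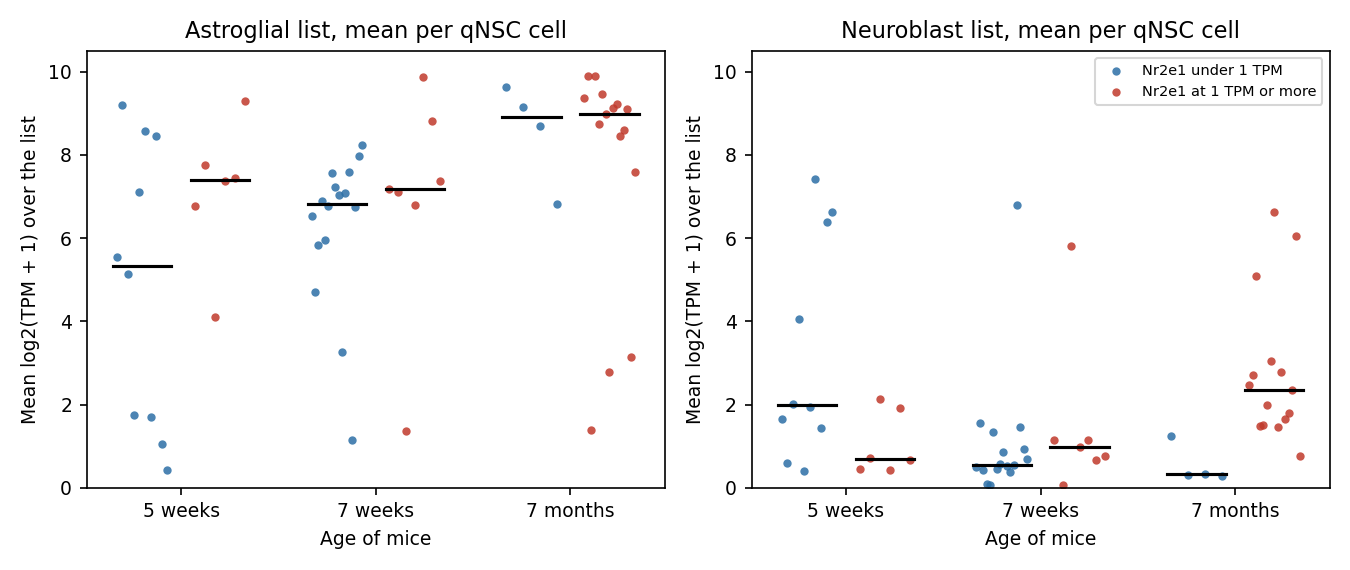
Mean log2(TPM + 1) over the astroglial list (left) and the neuroblast list (right) in each qNSC cell, by age and side; points are cells and black bars are medians. Low astroglial means lie on the undetected side at 5 weeks (4 cells under 3) and on the detected side at 7 months (2 cells under 3).

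Neuroblast means per cell show which cells carry this. The 4 undetected 5-week cells of astroglial mean under 3 had neuroblast means of 4.06 to 7.42. The 2 such detected cells at 7 months had 5.08 and 6.62. A further detected 7-month cell, A1_3_S16, had a neuroblast mean of 6.06 and an astroglial mean of 3.14. The opposite runs of the 2 lists over the ages thus share these cells. At 5 weeks the 6 detected cells had means of 0.42 to 2.14 (median 0.69) and the 10 undetected cells 0.41 to 7.42 (median 1.98). At 7 months the 15 detected cells had 0.76 to 6.62 (median 2.35) and the 4 undetected cells 0.28 to 1.25 (median 0.32). The sides overlapped at both ages. Dcx, a microtubule protein of migrating neuroblasts, reached 1 TPM in 13 detected cells, 11 of them at 7 months, and in 5 undetected cells. At 10 TPM it was found in 5 detected and 4 undetected cells, so most of the 7-month cells with Dcx held it at a low level.

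**Figure D5:**
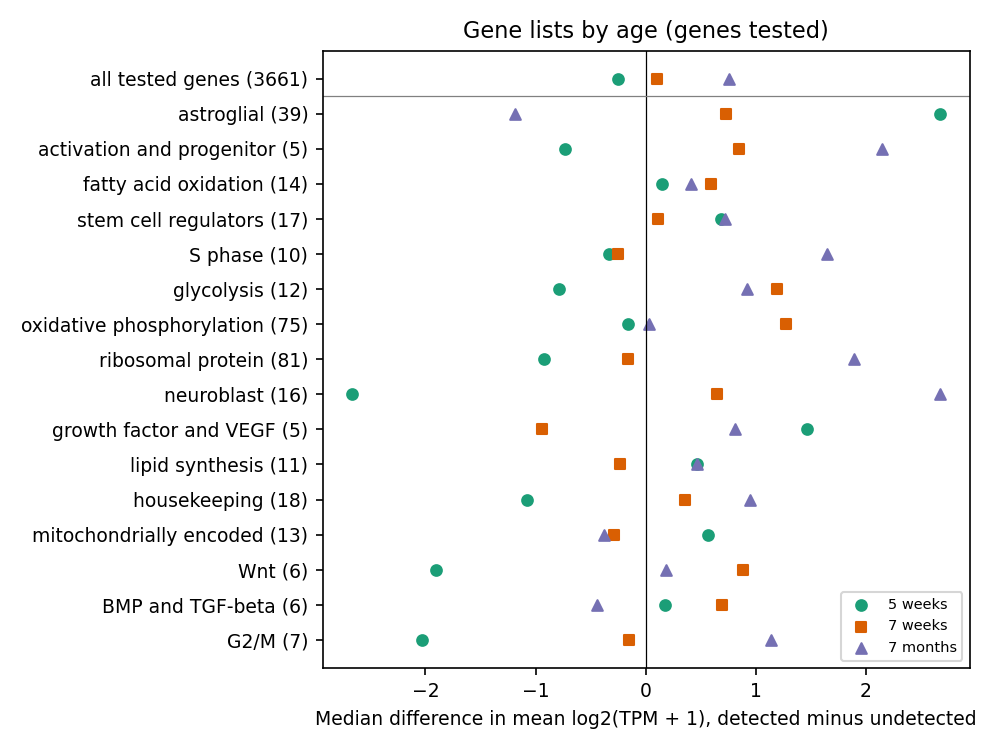
Median difference in mean log2(TPM + 1), Nr2e1-detected minus undetected qNSC cells, for each gene list with at least 5 tested genes (number in brackets) and for all 3661 tested genes; symbols are the 3 ages. The astroglial median goes from 2.67 at 5 weeks to -1.19 at 7 months and the neuroblast median from -2.67 to 2.68, while that of all genes goes from -0.25 to 0.76.

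Defining markers of other cell types were at or near 0 on both sides. Pdgfra and Cspg4 of oligodendrocyte precursors, Cx3cr1, C1qa and Csf1r of microglia, Cldn5, Pecam1 and Vtn of vessels, Foxj1 and Ccdc153 of ependymal cells and Folr1 of choroid plexus reached 1 TPM in 0 of 28 detected and 0 of 30 undetected cells. Taking 3 cells of the total as the limit, a count of 0 allows a share of up to 10.7% and 10.0%, respectively, for counting error only. A myelin transcript did appear: Mbp reached 1 TPM in 11 detected cells and 1 undetected cell. The mean over the 12 oligodendrocyte genes nonetheless stayed between 0 and 1.54 in detected and 0 and 1.04 in undetected cells. Ttr, the main choroid plexus transcript, reached 1 TPM in 8 and 3 cells. The part of these transcripts in the differences between sides was not tested.

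Whether the same differences exist in active cells was tested directly. The qNSC difference minus the aNSC difference, taken within each age, passed for 0 of 4188 genes (0%; limma, smallest adjusted p 0.728), with 38 genes higher and 245 lower at an unadjusted p under 0.05. The median gene had an interaction of -0.43. The 7-month aNSC value rests on 1 undetected cell with 1621 genes, beside 9 detected cells. Without the 7-month cells 0 of 4125 genes passed (limma, 36 higher and 133 lower at an unadjusted p under 0.05), and the median interaction was -0.26. Slc25a5 differed by -2.77 in qNSC and 6.27 in aNSC cells (interaction -9.04, unadjusted p = 1.78e-04). Acsl6 differed by -3.20 and 1.22 (interaction -4.42, unadjusted p = 0.00653), and Acsl3 by 3.49 and 0.03 (interaction 3.46, unadjusted p = 0.0108). Sdhb had a positive difference in both stages, 3.94 and 2.69 (interaction 1.25, unadjusted p = 0.434). Without the 7-month cells the interactions of Slc25a5, Acsl6, Acsl3 and Sdhb were -8.10, -3.98, 3.01 and 3.27, with a limma adjusted p of 0.981 for each. Slc25a5, Acsl6, Acsl3 and Sdhb were picked for the size of their qNSC difference, which is 1 term of the interaction. Their unadjusted p-values are therefore no independent evidence. None of these interactions passed after adjustment by limma over all 4188 genes. No gene is therefore shown to differ between Nr2e1 sides in quiescent cells alone.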

How the data were processed

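Expression came as 1 TPM table deposited for the whole series. It was made with RSEM 1.2.15 and build mm9, per the submitters' processing notes; aligner, annotation and read depth are not given in the sources used here. TPM keeps no counts, so depth is unknown. Columns summed to 710525 or more and were used as deposited. Ensembl IDs were matched to symbols for 32897 of 37621 rows. Stages and ages came from the labels. A near-identical 5-week qNSC pair (A3_3_S7 and A3_3_S8, correlation 0.992; next pair 0.742) was averaged and counted as 1 cell.

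The sides' comparison used limma (version 3.58.1, under R 4.3.3) on means of log2(TPM + 1) per side and age (3 pairs, age as block), for genes with a mean of at least 1. Fold differences on this scale understate changes of low genes. The fit was run on simulated data with raised gene levels and large known shifts. That run checks the code and does not show whether differences of the size seen here would be found. Single values used exact sign-flip permutation tests over 8 title sets. Cells were never replicates; the labels name no animals, so p-values measure only the spread between ages or sets, which may be technical. Named genes were the 10 largest differences per direction whose sign held at every age and in 6 or more of 8 sets (predicted genes left out), as none passed, plus a panel and list members. A few listed items are not reported here. Members and lists were chosen with earlier results of these data known. Alternatives covered pseudocount, filter, scaling, units, Nr2e1 level, covariate (slope on the number of genes subtracted before the fit), left-out sets and ages. Python 3.11.15, numpy 2.4.6, pandas 2.3.3 and scipy 1.17.1 were also used.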

Additional observations from a re-analysis of the deposited data

Results flagged for a closer look

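Among 143 groups of values examined, 20 results stood out. About 1 group in 20 is marked by chance where a single extreme cell or set is looked for.

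In 8 groups of qNSC cells 1 cell lay far from the others. The detected cells at 5 weeks held 1 cell with 24.8% of TPM in Malat1 and 1 with an oligodendrocyte mean of 0.59. Of the undetected cells, 1 at 5 weeks had a gfp level of 7.76 on the log2 scale and 1 at 7 months had 5.97. The detected 7-week cells held 1 cell, A2_2_S10, with both an astroglial mean of 1.36 and a neuroblast mean of 5.81. The undetected 7-month cell with the gfp level of 5.97, A1_3_S6, also had 17.8% mitochondrially encoded TPM. Another undetected 7-month cell had a neuroblast mean of 1.25.

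Between ages, every title set with both sides moved one way at 5 weeks and the opposite way at 7 months for 2 measures. The mitochondrially encoded share differed by 2.52 percentage points (detected minus undetected, mean over sets) at 5 weeks and -3.34 at 7 months. The neuroblast mean differed by -1.79 and 2.54. These differences between ages were not tested, and rest on 3 and 2 sets. At 7 months the mitochondrially encoded difference was -0.89 points in A1_1 and -5.80 in A1_3. The latter rests on 1 undetected cell, A1_3_S6, flagged above for its 17.8%. At 5 weeks sets A3_1 and A3_2 also held 1 cell on 1 side.

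For 8 named genes 1 title set lay far from the other sets in its difference on the log2 scale. Set A3_1 stood apart for Timm8b (-9.94) and Smc2 (-9.27), set A3_2 for Ctsb (2.63) and Sox2 (6.97), and set A3_3 for Hes1 (5.75) and Snap25 (-4.21). Set A1_1 stood apart for Ccnb1 (4.69) and set A1_3 for Ccdc39 (3.28). Sets A3_1 and A1_3 held 1 undetected qNSC cell each, and set A3_2 held 1 detected cell. The differences of these sets therefore rest on 1 cell on 1 side.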

How the results depend on the processing

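The count of 0 genes passing between sides held under 28 of 29 alternatives. The exception was title sets as units, with 1 gene higher (Sdhb) and 0 lower. Without the replicate block for age, 0 genes passed in either direction (95 higher and 18 lower at an unadjusted p under 0.05), so the pairing by age changed no call. The interaction with aNSC gave 0 genes under all 13 alternatives. Leaving out a title set moved the difference in genes detected per cell between 77.1 and 533, and leaving out the 7-month cells made it -168; none passed. Of 111 named and tested genes, 55 kept their sign under each alternative that tested them and 56 changed it in at least 1, none of them as a call. The filter at a mean of 3 tested 61 of them, and leaving out the 7-month cells 101. Without the 7-month cells the median over all genes was -0.03, and with a pseudocount of 0.1 it was 0.43. The unknown depth, 3 pairs of ages and 4 undetected 7-month cells limit what could be seen.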
